A study of Mus musculus with 12 samples.

Results

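The genes described here act in cell division, DNA replication, the passage from G1 to S phase and the p53 response. Members were the rows of the deposited expression table whose Ensembl identifier carries a listed mouse symbol in the GENCODE M21 annotation of GRCm38. All 44 listed genes were found among the 35275 genes of the table, 22 for mitosis, 11 for replication, 6 G1/S cyclins and transcription factors, and 5 p53 targets and growth arrest genes. Whole livers of 12 mice were sequenced as RNA, 1 library from each, in 4 groups of 3. The groups were wild-type mice (WT) on chow, PCTP-/- mice on chow, WT mice on the MCD diet and PCTP-/- mice on the MCD diet, a diet without methionine and choline that gives steatosis and liver damage. The knockout, written Pctp-/- below, removes phosphatidylcholine transfer protein (PC-TP) from the whole body, so changes in liver RNA need not start in the liver. The study worked with male mice, while the age of these animals and their time on the diet are not given in the sources used here. It asked which transcripts differ in livers that are protected from the damage done by the MCD diet.

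Values are FPKM, fragment numbers divided by gene length and library depth. Uniquely mapped reads ran from 30486576 to 55179468 per library. The share of reads mapped uniquely was 77.6 to 79.4% in the chow and 85.7 to 87.5% in the MCD libraries, with a stated read error rate of 0.03% and 0.01%. All chow libraries differ in this way from all MCD libraries, so diet and sequencing cannot be told apart, whereas WT and Pctp-/- libraries of a diet are alike in it. The targeted gene Pctp was at 1.21 to 2.65 FPKM in WT chow, 0.330 to 0.566 in Pctp-/- chow, 3.61 to 7.90 in WT MCD and 0.156 to 0.329 in Pctp-/- MCD livers, as labelled. All 6 hepatocyte markers were present in every library. Their summed FPKM was 40087 to 45016 for chow libraries and 52592 to 73737 for MCD libraries, most of it Alb. Alb was at 26290 to 29916 FPKM on chow and 41402 to 61588 on MCD, the only 1 of the 6 to separate upward. Hnf4a, Serpina1a and Apoa1 were lower in all MCD than in all chow libraries, so the sum does not describe the markers together. One library, WT MCD 1, stood apart for many of the genes below, and values without it stand beside the results it changes most. Whole liver holds many cell types, so fewer cells of a type and less RNA per cell cannot be told apart.

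A dividing cell first builds cyclin D complexes, which release E2F factors from the retinoblastoma protein. E2F factors then switch on cyclin E and the replication genes, and later complexes that hold B-MYB and FOXM1 switch on the mitotic genes. The protein p53 acts against this order, largely through the CDK inhibitor p21, and it also raises its own inhibitor MDM2. Adult hepatocytes rarely divide, but they re-enter the cycle after injury, and other liver cells can divide as well.

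Promoter windows from RefSeq (GRCm38.p6), from 250 bases before to 50 bases after the start, were found for 36 of the 44 genes, and they are shown for 6 genes to set the CHR of mitotic members beside the E2F motif of replication members. The motifs were searched on both strands. The CHR, the cell cycle genes homology region known from promoters of mitotic genes, is TTTGAA, or TTCGAA, which is its own reverse complement, and the reverse complement of TTTGAA is TTCAAA. The CCAAT box, which often stands beside it, is CCAAT, with ATTGG on the other strand. The E2F motif, known from replication genes, is TTTCGCGC or TTTGGCGC, with GCGCGAAA and GCGCCAAA on the other strand, and a match on one strand can overlap a match on the other. Capitals mark these matches in the lines that follow.
Plk1, chr7:122159185-122159484, plus strand: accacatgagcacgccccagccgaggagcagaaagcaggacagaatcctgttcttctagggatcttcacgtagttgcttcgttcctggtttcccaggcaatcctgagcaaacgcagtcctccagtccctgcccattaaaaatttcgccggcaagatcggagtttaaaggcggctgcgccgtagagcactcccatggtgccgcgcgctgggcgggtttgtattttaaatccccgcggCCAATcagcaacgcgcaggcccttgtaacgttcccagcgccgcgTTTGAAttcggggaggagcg
Ccnb2, chr9:70421505-70421804, minus strand: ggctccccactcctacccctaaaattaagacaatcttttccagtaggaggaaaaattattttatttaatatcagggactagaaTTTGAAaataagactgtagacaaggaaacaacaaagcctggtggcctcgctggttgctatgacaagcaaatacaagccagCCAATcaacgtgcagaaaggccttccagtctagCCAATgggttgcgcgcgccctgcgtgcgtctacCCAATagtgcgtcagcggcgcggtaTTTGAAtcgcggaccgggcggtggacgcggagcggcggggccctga
Cdk1, chr10:69352863-69353162, minus strand: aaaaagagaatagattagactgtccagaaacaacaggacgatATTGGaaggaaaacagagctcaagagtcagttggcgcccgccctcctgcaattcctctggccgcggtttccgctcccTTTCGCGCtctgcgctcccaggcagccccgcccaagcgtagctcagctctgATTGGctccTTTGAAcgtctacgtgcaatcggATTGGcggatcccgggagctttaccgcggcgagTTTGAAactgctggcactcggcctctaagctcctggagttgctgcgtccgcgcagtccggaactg
Cdc20, chr4:118437294-118437593, minus strand: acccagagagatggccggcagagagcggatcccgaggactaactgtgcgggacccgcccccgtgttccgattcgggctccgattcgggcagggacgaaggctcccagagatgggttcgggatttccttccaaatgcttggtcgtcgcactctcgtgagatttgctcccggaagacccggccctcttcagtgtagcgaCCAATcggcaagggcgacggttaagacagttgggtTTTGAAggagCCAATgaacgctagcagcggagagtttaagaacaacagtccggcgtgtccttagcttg
Mcm5, chr8:75109259-75109558, plus strand: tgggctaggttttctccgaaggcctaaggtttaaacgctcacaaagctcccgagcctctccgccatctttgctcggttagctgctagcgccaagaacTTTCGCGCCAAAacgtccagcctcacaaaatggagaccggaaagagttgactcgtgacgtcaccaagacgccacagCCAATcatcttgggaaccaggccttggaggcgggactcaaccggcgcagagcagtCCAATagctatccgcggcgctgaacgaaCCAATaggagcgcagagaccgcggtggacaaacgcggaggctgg
Mcm6, chr1:128359656-128359955, minus strand: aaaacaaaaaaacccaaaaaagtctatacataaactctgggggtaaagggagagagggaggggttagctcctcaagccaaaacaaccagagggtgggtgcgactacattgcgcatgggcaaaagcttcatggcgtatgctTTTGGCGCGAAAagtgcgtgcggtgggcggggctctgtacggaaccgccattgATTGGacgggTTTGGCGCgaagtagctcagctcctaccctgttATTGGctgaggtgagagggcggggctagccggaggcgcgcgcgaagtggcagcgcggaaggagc

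In the windows of the mitotic genes the CHR and the CCAAT box occurred together. Members were counted as genes with a match in any of their windows, 39 windows for 36 genes, while the shares of all are per window. A CHR was found for 14 of the 18 mitotic genes with a window, against 19.2% of all 32851 promoter windows. A CCAAT box was found for 16 of 18, against 37.4%. The CCAAT box was also found for 8 of 10 replication and 4 of 5 p53 group genes. Both motifs stood in the same window of 14 mitotic genes, against 7.52% of all windows. Plk1, a mitotic kinase, has a CCAAT box 14 bases before the start and a CHR 31 bases after it. Cdk1, the kinase that drives mitosis, has a CHR 71 and another 15 bases before the start, and an E2F motif 131 bases before it. Of the 10 replication genes with a window, 2 had a CHR (Mcm2 and Mcm7) and 4 had an E2F motif (Mcm3, Mcm5, Mcm6 and Mcm7), against 0.813% of all windows. In Mcm5 the motif lies 153 bases before the start, where matches on both strands overlap. None of the 5 p53 group genes had a CHR in a window. A match is a description of letters, and binding at these windows was not measured.

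On the MCD diet all 5 p53 group genes and 7 of 10 replication genes rose in WT livers, while none of the tested mitotic genes passed. In Pctp-/- livers 3 p53 group, 3 G1/S and 3 replication genes rose, and 3 of 10 is close to the share of all genes that rose there. In WT livers 14 of the 28 members that could be tested rose and 2 fell, and in Pctp-/- livers 10 rose and 2 fell. Over all 12466 genes tested, 34.5% rose and 22.5% fell in WT and 26.0% rose and 24.4% fell in Pctp-/- livers. The median log2 fold change of the 28 was 0.38 in WT and 0.18 in Pctp-/- livers, against 0.11 and 0.04 over all genes tested. By role, 0 of 8 mitotic, 8 of 10 replication, 3 of 5 G1/S and all 5 p53 group genes passed in WT, and 1, 4, 4 and 3 of them in Pctp-/- livers. A gene was tested where its mean FPKM over the 12 libraries was at least 0.5, which left out 14 mitotic genes, Mcm6 and Foxm1. The test was limma on log2(FPKM + 1), with a Benjamini-Hochberg adjusted p under 0.05 taken as a change. Differences below are on that scale, which understates the change of low genes.

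**Figure D1:**
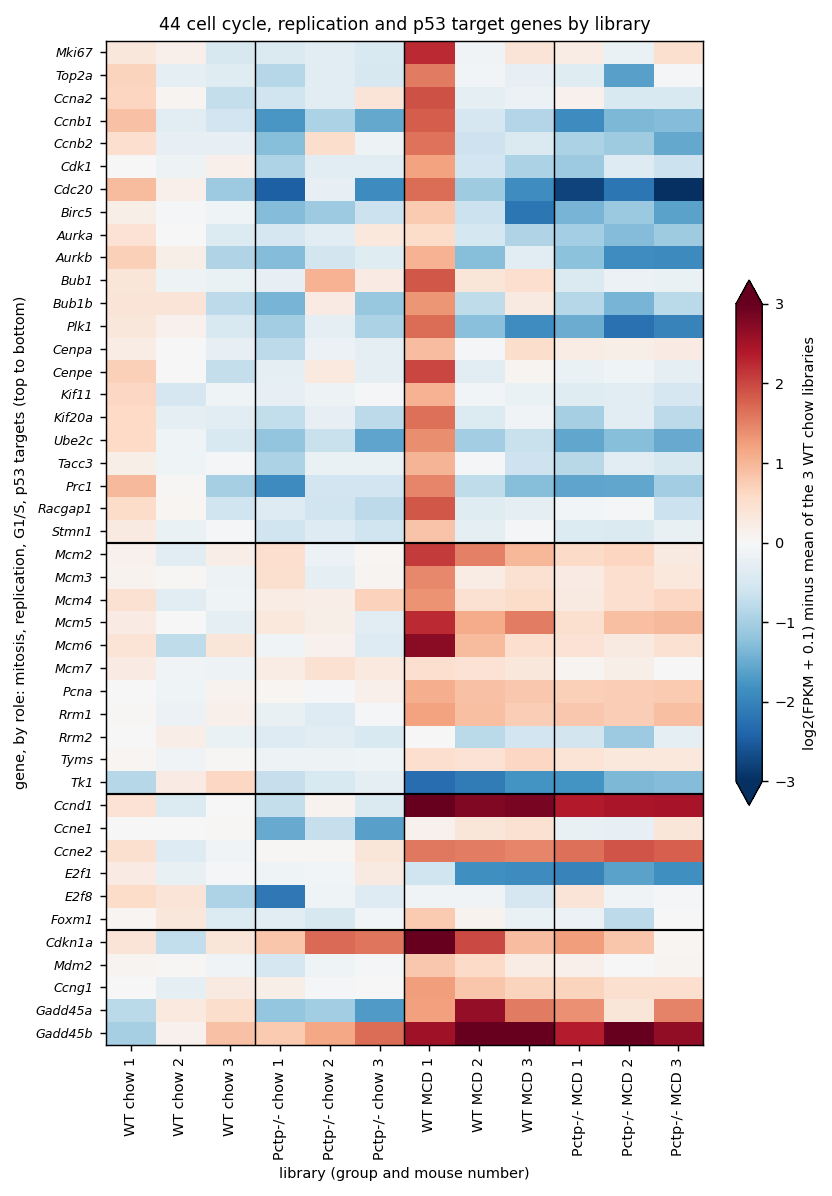
Heat map of log2(FPKM + 0.1) of the 44 members (rows, ordered by role from mitosis to p53 targets) in the 12 libraries (columns), each row set to 0 at the mean of the 3 WT chow libraries. All 22 mitotic genes are highest in WT MCD 1, while Ccnd1 and Gadd45b are raised in all 6 MCD libraries.

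Cyclin D1 was the G1/S gene that moved most. Ccnd1 FPKM was 13.7, 7.57 and 10.1 in WT chow, 6.14, 10.9 and 7.45 in Pctp-/- chow, 117, 69.9 and 73.6 in WT MCD and 53, 56.2 and 57.2 in Pctp-/- MCD livers. All 6 MCD libraries lay above all 6 chow libraries, and the lowest MCD value was 53 against a highest chow value of 13.7. Ccnd1 rose on MCD by 2.93 ± 0.23 (log2 fold change ± SE, adjusted p = 1.3e-06) in WT and by 2.66 ± 0.23 (adjusted p = 3.6e-06) in Pctp-/- livers. The gene encodes the regulatory subunit of CDK4 and CDK6 (chr7:144929931-144939925, minus strand). Its exons share 1100 bases, 23.4% of its exon length, with those of LTO1 on the opposite strand, whose mean was 8.66 FPKM. Whether the counting used strand is not stated, so reads of these bases cannot be assigned.

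The cyclins E activate CDK2 at the start of S phase, and Ccne2 passed in both genotypes and Ccne1 in Pctp-/- livers. Ccne2 FPKM was 0.629, 0.298 and 0.386 in WT chow, 0.43, 0.431 and 0.575 in Pctp-/- chow, 1.47, 1.4 and 1.35 in WT MCD and 1.54, 1.83 and 1.69 in Pctp-/- MCD livers. Ccne2 rose by 0.75 ± 0.11 (adjusted p = 1.5e-04) in WT and by 0.86 ± 0.11 (adjusted p = 6.7e-05) in Pctp-/- livers, and with a pseudocount of 0.1 by 1.53 and 1.63. The MCD and chow libraries did not overlap, although 17.4% of the exon length of Ccne2 is shared with Ints8 on the other strand. Ccne1 FPKM was 1.16, 1.16 and 1.19 in WT chow, 0.348, 0.686 and 0.311 in Pctp-/- chow, 1.29, 1.54 and 1.63 in WT MCD and 0.984, 0.964 and 1.53 in Pctp-/- MCD livers. Its chow values were lower in all 3 Pctp-/- than in all 3 WT livers. Ccne1 rose on MCD by 0.58 ± 0.14 (adjusted p = 0.0038) in Pctp-/- livers, and its difference was 0.19 ± 0.14 (adjusted p = 0.24) in WT livers.

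E2f1, an activating factor of the E2F family, went the other way. E2f1 FPKM was 2.52, 1.79 and 2.04 in WT chow, 1.91, 1.97 and 2.56 in Pctp-/- chow, 1.35, 0.515 and 0.496 in WT MCD and 0.444, 0.625 and 0.512 in Pctp-/- MCD livers. Every MCD value was below every chow value, and WT MCD 1 was the highest of the MCD libraries. E2f1 fell by 0.83 ± 0.17 (adjusted p = 0.0015) in WT and by 1.04 ± 0.17 (adjusted p = 3.8e-04) in Pctp-/- livers. E2f8 FPKM was 10.0, 8.93 and 3.54 in WT chow, 1.47, 6.28 and 5.19 in Pctp-/- chow, 6.34, 6.34 and 4.81 in WT MCD and 8.99, 6.34 and 6.66 in Pctp-/- MCD livers. This repressor of the E2F family varied widely among chow livers of either genotype, with a log2 difference of -0.22 ± 0.38 (adjusted p = 0.64) in WT and 0.78 ± 0.38 (adjusted p = 0.11) in Pctp-/- livers. An antisense transcript, Gm2788, shares 11.2% of its exon length. Foxm1 FPKM was 0.22, 0.289 and 0.132 in WT chow, 0.147, 0.121 and 0.189 in Pctp-/- chow, 0.429, 0.23 and 0.167 in WT MCD and 0.169, 0.0782 and 0.209 in Pctp-/- MCD livers. Foxm1, which drives mitotic genes, was too low to be tested, and its highest value was in WT MCD 1.

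**Figure D2:**
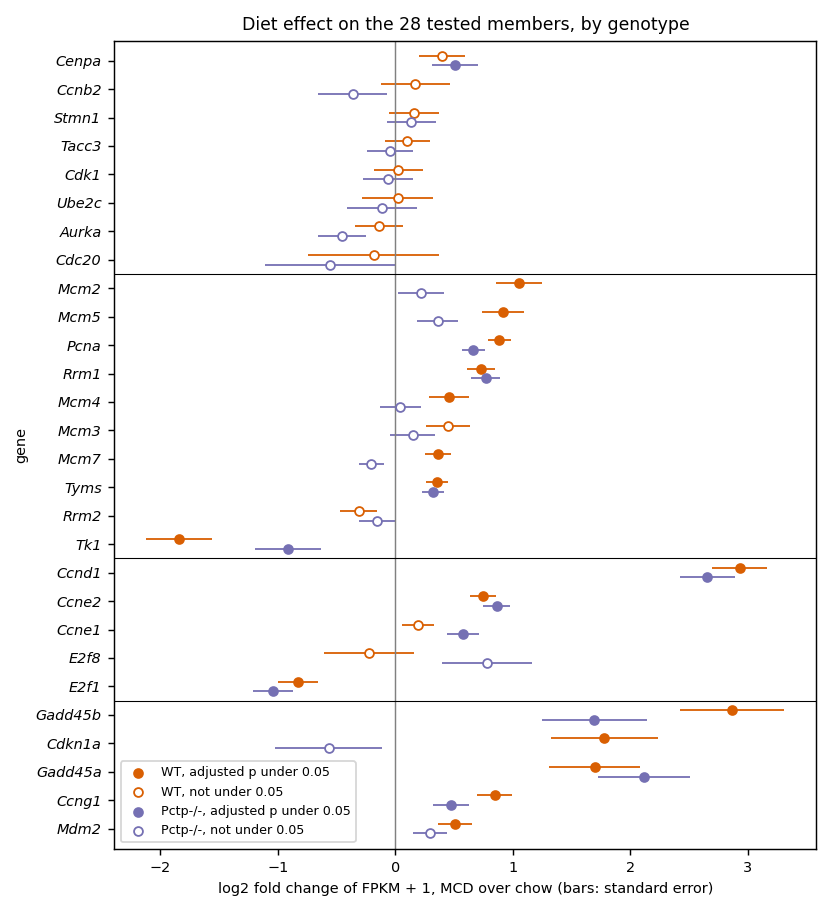
Log2 fold change of FPKM + 1 between MCD and chow (x axis) for the 28 tested members (y axis, grouped by role), in WT (orange) and Pctp-/- livers (purple), with standard errors as bars and filled points for an adjusted p under 0.05. Ccnd1 lies at 2.93 and 2.66, and none of the 8 mitotic genes has a filled point in WT.

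The replication genes rose less than cyclin D1, most of them in livers of WT mice. Pcna, the sliding clamp of the DNA polymerases (chr2:132249162-132253314, minus strand), was the most abundant of them. Pcna FPKM was 15.1, 13.6 and 16 in WT chow, 15.5, 14.3 and 16.6 in Pctp-/- chow, 31.8, 27.2 and 26.2 in WT MCD and 24.7, 24.8 and 25.7 in Pctp-/- MCD livers. Its MCD and chow libraries did not overlap. Pcna rose by 0.88 ± 0.10 (adjusted p = 1.4e-05) in WT and by 0.66 ± 0.10 (adjusted p = 1.6e-04) in Pctp-/- livers. Rrm1 FPKM was 2.11, 1.79 and 2.27 in WT chow, 1.75, 1.55 and 1.96 in Pctp-/- chow, 4.87, 3.89 and 3.51 in WT MCD and 3.66, 3.46 and 3.92 in Pctp-/- MCD livers. Rrm1, the large subunit of ribonucleotide reductase, rose by 0.73 ± 0.12 (adjusted p = 2.9e-04) and 0.77 ± 0.12 (adjusted p = 2.5e-04), again without overlap of the diets. Tyms FPKM was 1.55, 1.39 and 1.53 in WT chow, 1.33, 1.32 and 1.35 in Pctp-/- chow, 2.16, 2.05 and 2.35 in WT MCD and 2.01, 1.86 and 1.86 in Pctp-/- MCD livers. Tyms, which makes thymidylate, rose by 0.36 ± 0.09 (adjusted p = 0.0056) in WT and by 0.32 ± 0.09 (adjusted p = 0.012) in Pctp-/- livers, and the WT call was lost after quantile normalization.

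The MCM genes encode the subunits of the replicative helicase, and 4 of the 5 tested ones rose in WT livers. Mcm2 FPKM was 1.16, 0.798 and 1.22 in WT chow, 1.52, 0.905 and 1.09 in Pctp-/- chow, 4.81, 3.17 and 2.17 in WT MCD and 1.59, 1.7 and 1.27 in Pctp-/- MCD livers. The 3 WT MCD values were above the other 9 libraries. Mcm2 rose by 1.05 ± 0.20 (adjusted p = 6.8e-04) in WT, and its difference was 0.22 ± 0.20 (adjusted p = 0.36) in Pctp-/- livers. Mcm5 FPKM was 0.663, 0.546 and 0.433 in WT chow, 0.697, 0.624 and 0.404 in Pctp-/- chow, 2.94, 1.29 and 1.75 in WT MCD and 0.793, 1.11 and 1.16 in Pctp-/- MCD livers. Mcm5 rose by 0.92 ± 0.18 (adjusted p = 8.9e-04) in WT, and in Pctp-/- livers it was higher on MCD without overlap, with 0.36 ± 0.18 (adjusted p = 0.11). Its window, shown above, holds the E2F motif.

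Mcm7 lay above its chow level in WT and below it in Pctp-/- livers. Mcm7 FPKM was 5.58, 4.34 and 4.18 in WT chow, 5.45, 6.41 and 5.72 in Pctp-/- chow, 6.61, 6.34 and 5.93 in WT MCD and 4.9, 5.25 and 4.72 in Pctp-/- MCD livers. In WT every MCD value was above every chow value, and in Pctp-/- livers every MCD value was below every chow value. Mcm7 rose by 0.36 ± 0.11 (adjusted p = 0.014) in WT and stood at -0.20 ± 0.11 (adjusted p = 0.14) in Pctp-/- livers, and the difference of these effects was -0.57 ± 0.16 (adjusted p = 0.14). Mcm4 FPKM was 1.19, 0.645 and 0.754 in WT chow, 0.997, 0.977 and 1.43 in Pctp-/- chow, 2.3, 1.19 and 1.27 in WT MCD and 1.02, 1.23 and 1.33 in Pctp-/- MCD livers. Mcm4 rose by 0.46 ± 0.17 (adjusted p = 0.037) in WT, a call that was lost without WT MCD 1 (0.27, adjusted p = 0.16), and its difference in Pctp-/- livers was 0.04 ± 0.17 (adjusted p = 0.85). Mcm3 FPKM was 1.05, 1 and 0.864 in WT chow, 1.39, 0.778 and 1.03 in Pctp-/- chow, 2.81, 1.15 and 1.38 in WT MCD and 1.16, 1.42 and 1.23 in Pctp-/- MCD livers. WT MCD 1 stood far above the other libraries for Mcm3, whose difference in WT was 0.45 ± 0.19 (adjusted p = 0.059), and 0.20 (adjusted p = 0.25) without that library. Mcm6 had a mean of 0.423 FPKM and was at 1.96 in WT MCD 1, 0.512 and 0.350 in the other WT MCD livers, and 0.0858 to 0.338 in the remaining 9 libraries. With a pseudocount of 0.1 and a filter at a mean FPKM of 0.1, all 44 members but Bub1 could be tested. Mcm6 was then added to the rises in WT, where 17 members passed, a smaller share than the 49.7% of all genes. In Pctp-/- livers 12 passed, also a smaller share than the 43.2% of all genes.

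The salvage enzyme thymidine kinase fell while these genes rose. Tk1 FPKM was 8.8, 19.1 and 24.8 in WT chow, 9.96, 11.6 and 13.4 in Pctp-/- chow, 3.25, 3.66 and 4.6 in WT MCD and 4.55, 6.27 and 6.45 in Pctp-/- MCD livers. All MCD values were below all chow values, and the WT chow values were spread most. Tk1 fell by 1.84 ± 0.28 (adjusted p = 1.6e-04) in WT and by 0.91 ± 0.28 (adjusted p = 0.017) in Pctp-/- livers. The 7 erythroid markers used here summed to 256 to 763 FPKM on chow and 208 to 278 on MCD, most of it Hba-a1 and Hbb-bs. Klf1 was at 3.07 to 3.88 FPKM on chow and 0.308 to 1.44 on MCD. Alas2 overlapped, at 9.23 to 16.1 on chow and 11.8 to 15.8 on MCD, so the sum does not describe the markers together. Slc4a1 was at 0 in 3 MCD libraries and Hba-a2 at 0 in libraries of both diets. The part of erythroid cells in the falls of Tk1 and E2f1 was not tested. Rrm2 FPKM was 2.2, 2.52 and 1.88 in WT chow, 1.65, 1.7 and 1.58 in Pctp-/- chow, 2.18, 1.2 and 1.44 in WT MCD and 1.46, 0.973 and 1.79 in Pctp-/- MCD livers. Rrm2, the small subunit of ribonucleotide reductase, was not called with Rrm1, and its log2 difference was -0.31 ± 0.16 (adjusted p = 0.11) in WT and -0.15 ± 0.16 (adjusted p = 0.45) in Pctp-/- livers. Without WT MCD 1 Rrm2 was called as lower in WT livers, at -0.46 (adjusted p = 0.025).

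**Figure D3:**
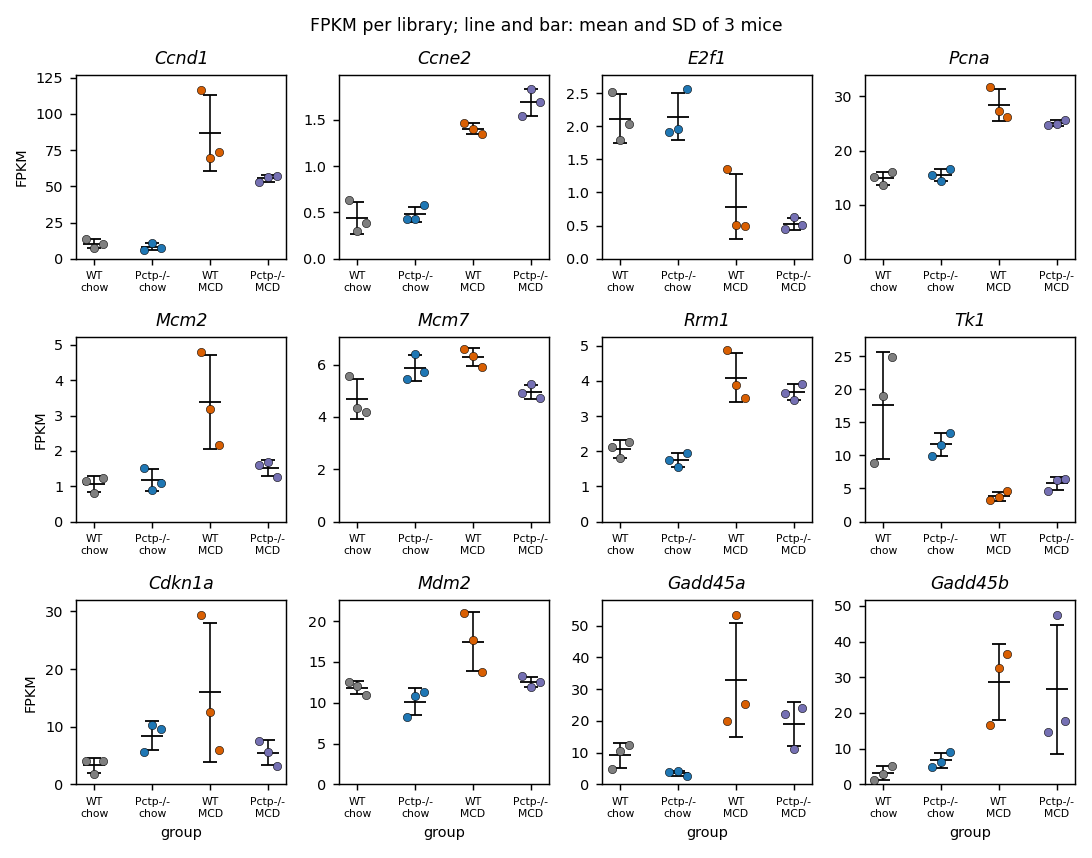
FPKM (y axis) of 12 members in each of the 12 libraries, by group (x axis), with a line and bar for the mean and SD of 3 mice. Ccnd1, Ccne2, Pcna and Rrm1 separate the diets in both genotypes, and Cdkn1a is high in 1 WT MCD liver at 29.3 FPKM.

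All 5 genes of the p53 group rose on MCD in WT livers, and 3 of them in Pctp-/- livers. Gadd45b FPKM was 1.33, 3.01 and 5.14 in WT chow, 4.83, 6.26 and 8.96 in Pctp-/- chow, 16.5, 32.6 and 36.6 in WT MCD and 14.6, 47.4 and 17.9 in Pctp-/- MCD livers. Gadd45b, a stress gene that acts on the JNK and p38 pathways, rose by 2.86 ± 0.45 (adjusted p = 1.9e-04) in WT and by 1.69 ± 0.45 (adjusted p = 0.0074) in Pctp-/- livers, with no overlap of the diets. Gadd45a FPKM was 4.81, 10.4 and 12.3 in WT chow, 3.78, 4.05 and 2.54 in Pctp-/- chow, 20.0, 53.3 and 25.3 in WT MCD and 22.1, 11 and 24 in Pctp-/- MCD livers. The Pctp-/- chow values were below all others. Gadd45a, a growth arrest gene that p53 can switch on, rose by 1.70 ± 0.39 (adjusted p = 0.0027) and 2.12 ± 0.39 (adjusted p = 7.6e-04).

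The gene of p21, Cdkn1a (chr17:29090976-29100727, plus strand), was higher on MCD than on chow in WT livers. Cdkn1a FPKM was 4.09, 1.8 and 3.98 in WT chow, 5.54, 10.2 and 9.63 in Pctp-/- chow, 29.3, 12.5 and 6 in WT MCD and 7.55, 5.62 and 3.24 in Pctp-/- MCD livers. All 3 Pctp-/- chow values were above all 3 WT chow values, whereas the Pctp-/- MCD values overlapped with the Pctp-/- chow values. Cdkn1a rose by 1.78 ± 0.45 (adjusted p = 0.0051) in WT, and its difference was -0.57 ± 0.45 (adjusted p = 0.32) in Pctp-/- livers. The WT rise stayed past the threshold in each of 26 alternative settings, with a log2 fold change of 1.23 to 2.29. The difference between the diet effects was -2.35 ± 0.64 (adjusted p = 0.14), an unadjusted p of 0.0032 that did not pass over all genes.

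Ccng1 and Mdm2 are p53 targets that act back on p53. Ccng1 FPKM was 8.13, 6.64 and 9.71 in WT chow, 9.06, 7.84 and 8.09 in Pctp-/- chow, 19.4, 14.4 and 12.8 in WT MCD and 13, 11.3 and 11.6 in Pctp-/- MCD livers. The diets did not overlap in either genotype. Ccng1 rose by 0.85 ± 0.15 (adjusted p = 5.3e-04) in WT and by 0.47 ± 0.15 (adjusted p = 0.021) in Pctp-/- livers. Mdm2 FPKM was 12.5, 12.1 and 11 in WT chow, 8.25, 10.8 and 11.3 in Pctp-/- chow, 21, 17.7 and 13.8 in WT MCD and 13.2, 11.9 and 12.5 in Pctp-/- MCD livers. Mdm2, the ubiquitin ligase of p53, rose by 0.51 ± 0.14 (adjusted p = 0.0098) in WT, and in Pctp-/- livers its difference was 0.29 ± 0.14 (adjusted p = 0.11). Its WT call was lost in 2 alternative settings, both of which left out WT MCD 1 (adjusted p up to 0.055), and held at 0.38 (adjusted p = 0.046) with that library alone left out.

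The mitotic genes were low in every group, and none of those tested passed for the diet in WT livers. Their mean FPKM over the 12 libraries ran from 0.0809 for Bub1, a spindle checkpoint kinase, to 4.79 for Stmn1, a regulator of microtubules. FPKM steps gave whole fragments, within 0.02, for all 22 of them, and a library held 0 to 334 fragments of such a gene. Bub1 had 0 fragments in Pctp-/- MCD 1, which allows up to 0.0467 FPKM at 3 fragments, and Bub1b had 0 in Pctp-/- chow 1 and Pctp-/- MCD 2, which allows up to 0.0407 and 0.0563. Such limits cover counting error only. Of the 8 genes tested, 0 passed in WT, also at an unadjusted p under 0.05, with a median log2 fold change of 0.07. With the smaller pseudocount and filter 21 could be tested and 0 passed. Stmn1 FPKM was 6.27, 4.51 and 4.99 in WT chow, 3.42, 3.96 and 3.39 in Pctp-/- chow, 9.55, 4.25 and 5.01 in WT MCD and 3.86, 3.83 and 4.45 in Pctp-/- MCD livers. Cdc20 FPKM was 4.71, 2.67 and 1.08 in WT chow, 0.36, 2 and 0.579 in Pctp-/- chow, 7.9, 1.1 and 0.586 in WT MCD and 0.267, 0.461 and 0.103 in Pctp-/- MCD livers. Cdc20, the activator of the anaphase-promoting complex, varied more within than between the WT groups. Cenpa FPKM was 5.12, 4.41 and 3.62 in WT chow, 2.5, 3.83 and 3.52 in Pctp-/- chow, 8.33, 4.15 and 6.29 in WT MCD and 5.07, 4.88 and 5.2 in Pctp-/- MCD livers. Cenpa, the histone H3 variant of centromeres, rose by 0.51 ± 0.20 (adjusted p = 0.045) in Pctp-/- livers, a call that was lost in 10 of 26 alternative settings, and its WT difference was 0.40 ± 0.20 (adjusted p = 0.1).

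The highest mitotic values came from a single WT MCD liver, and the next highest sum came from WT chow 1. In WT MCD 1 each of the 22 mitotic genes was at its highest of the 12 libraries, as were 35 of all 44 members, against 24.9% of the 17145 genes whose mean FPKM reached 0.05. The 22 genes summed to 53.2 FPKM in WT MCD 1 and to 15.3 and 17.3 in the other WT MCD livers. Their sum was 13.2 to 13.9 in Pctp-/- MCD, 16.4 to 29.8 in WT chow and 10.2 to 16.9 in Pctp-/- chow livers. The ratio of WT MCD 1 to the mean of the other WT MCD livers had a median of 4.94 over the 22 genes, against 1.06 over all genes, and ran from 1.60 for Cenpa to 16.2 for Plk1. Plk1 was at 1.88 FPKM there from 79 fragments, and at 0.161 and 0.0716 in the others from 7 and 3. The proliferation marker Mki67 was at 1.74 against 0.261 and 0.407. Cyclin B1, Ccnb1, which activates Cdk1, was at 2.05 against 0.326 and 0.232. Topoisomerase II, Top2a, was at 1.4 against 0.378 and 0.332. These ratios describe 1 library and have no replicate check. The ratio was smaller in the other roles, with a median of 1.65 for replication, 1.38 for G1/S and 1.33 for the p53 group.

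**Figure D4:**
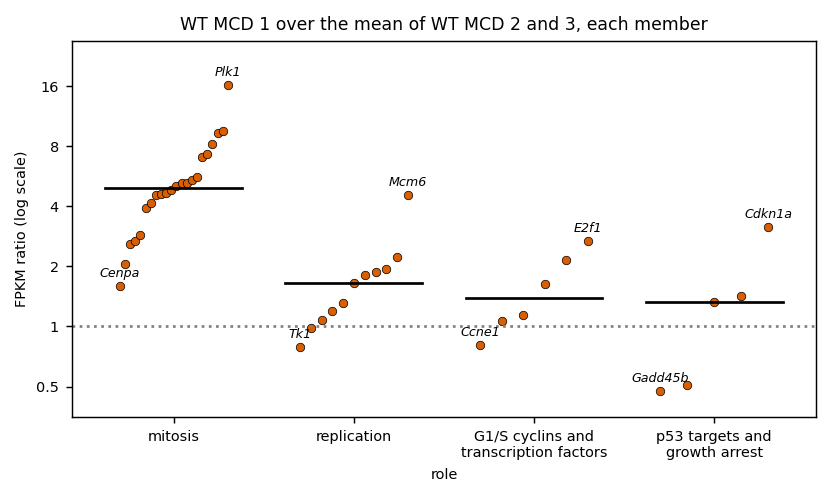
Ratio of the FPKM in WT MCD 1 to the mean of WT MCD 2 and 3 (y axis, log scale) for each of the 44 members, by role (x axis), with the median as a bar and the lowest and highest member named. The mitotic genes lie between 1.60 and 16.2 with a median of 4.94.

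The other mitotic genes shared this pattern in different measure. Among the cyclins and their kinase, Ccna2 was at 0.174 to 0.61 FPKM in 11 libraries and 1.61 in WT MCD 1, Ccnb2 at 0.199 to 1.14 FPKM in 11 libraries and 2.55 in WT MCD 1, and Cdk1 at 0.24 to 0.692 FPKM in 11 libraries and 1.55 in WT MCD 1. Among the kinases of the spindle and its checkpoint, Aurka was at 0.397 to 1.54 FPKM in 11 libraries and 1.68 in WT MCD 1, Aurkb at 0.0314 to 0.711 FPKM in 11 libraries and 0.915 in WT MCD 1, Bub1 at 0 to 0.178 FPKM in 11 libraries and 0.399 in WT MCD 1, and Bub1b at 0 to 0.244 FPKM in 11 libraries and 0.558 in WT MCD 1. Aurka differed least of the group from its next library, WT chow 1, at 1.54 FPKM. Of the motor proteins, Kif11, which separates the spindle poles, was at 0.14 to 0.427 FPKM in 11 libraries and 0.599 in WT MCD 1, Kif20a, which acts in cytokinesis, at 0.134 to 0.613 FPKM in 11 libraries and 1.37 in WT MCD 1, and Cenpe, which moves chromosomes, at 0.00825 to 0.188 FPKM in 11 libraries and 0.604 in WT MCD 1. Prc1, which bundles the midzone microtubules, was at 0.0409 to 0.923 FPKM in 11 libraries and 1.32 in WT MCD 1. Racgap1, of the central spindle, was at 0.0773 to 0.348 FPKM in 11 libraries and 1.02 in WT MCD 1. Prc1 was next highest in WT chow 1, while Racgap1 in WT MCD 1 was 2.93 times its next library. Birc5 was at 0.0788 to 0.807 FPKM in 11 libraries and 1.27 in WT MCD 1, Ube2c at 0.284 to 1.65 FPKM in 11 libraries and 2.95 in WT MCD 1, and Tacc3, a spindle protein, at 0.411 to 1.02 FPKM in 11 libraries and 1.9 in WT MCD 1. Of the exons of Kif20a 29.3% are shared with Cdc23 and of those of Ube2c 22.8% with Tnnc2, both on the opposite strand, where Cdc23 had a mean of 2.80 FPKM and Tnnc2 was listed at 0.

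The same library was highest for most markers of macrophages and stellate cells, and for few of other cell types. It led for 8 of 10 macrophage and Kupffer cell markers, whose sum was 200 FPKM there, 105 and 159 in the other WT MCD livers, 114 to 138 in Pctp-/- MCD, 36.3 to 61.8 in WT chow and 34.2 to 83.2 in Pctp-/- chow livers. Gpnmb was at 69.9 FPKM in WT MCD 1 against 14.2 and 16.5 in the other WT MCD livers. In Pctp-/- MCD livers Gpnmb was at 51.9, 50 and 32 FPKM, so high values were not particular to WT MCD 1. The Kupffer cell markers Clec4f and Timd4 were lower in WT MCD 1 than in the other WT MCD livers. They were at 49.5 against 55.3 and 96.2, and at 3.26 against 3.85 and 6.09. Among these markers Trem2 and Gpnmb were at 0 in 1 Pctp-/- chow library each. WT MCD 1 was also highest for 7 of 8 stellate cell and fibroblast markers. The 8 summed to 47.6 there and to 23.8 and 19.3 in the other WT MCD livers. Their sum was 18.1 to 23.4 in Pctp-/- MCD, 9.35 to 22.9 in WT chow and 14.5 to 18.7 in Pctp-/- chow livers. None of the 6 hepatocyte, 7 T and NK cell and 7 erythroid markers was highest there, and of 6 markers each 1 was for endothelial cells, 1 for cholangiocytes, 1 for B and plasma cells and 2 for neutrophils. The part of these cells in the mitotic values was not tested.

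WT MCD 1 was left out as an alternative chosen after the data were seen, and since every mitotic gene peaked there, its removal could only lower the WT MCD values. On log2(FPKM + 0.1), 18 of 20 mitotic genes that could be tested were then below 0, with a median of -0.42, and with all libraries 8 of 21 were, with a median of 0.17. Of the 20, 2 passed as lower, where 17.5% of all genes did. They were Birc5, an inhibitor of apoptosis that serves in cytokinesis, and Plk1, with log2 differences of -1.41 (adjusted p = 0.019) and -1.55 (adjusted p = 0.0091). Aurka, Birc5, Ccnb2, Cdk1, Plk1 and Ube2c were lower in both remaining WT MCD livers than in all WT chow livers, 6 of 22 genes, which is close to the 26.3% among all genes. In Pctp-/- livers Aurka, Kif11 and Plk1 were lower on MCD without overlap, 3 of 22 genes against 22.6% of all genes. Cenpa and Mki67 were higher, 2 of 22 against 28.5%. WT chow 1 was the highest chow library for 18 of the 22 mitotic genes, against 25.6% of all genes. On log2(FPKM + 1) the median of 7 tested mitotic genes was -0.24 without WT MCD 1 and -0.12 without both libraries, with 0 called by limma in either. Ube2c was at -0.43 and -0.26, Ccnb2 at -0.24 and -0.12, and Stmn1 at -0.15 and -0.03. At an unadjusted p under 0.05 there were 2 without WT MCD 1 and 0 without both, against 7082 of 12404 and 7048 of 12397 genes.

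**Figure D5:**
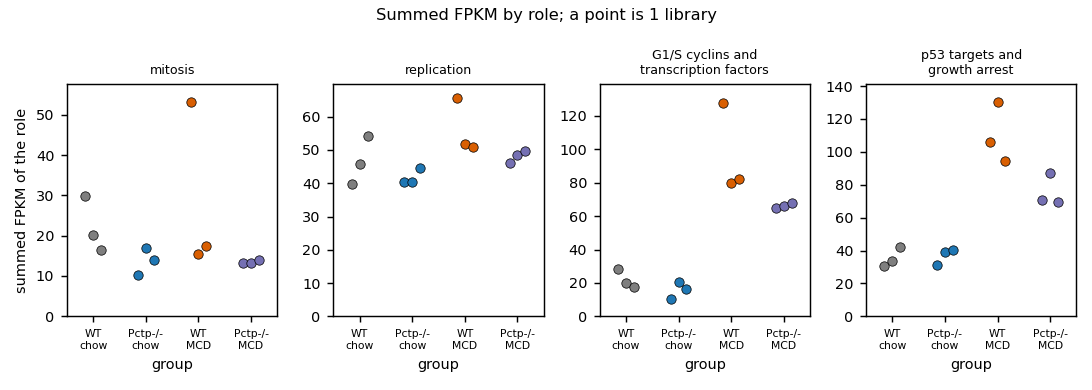
Summed FPKM of the members of each role (y axis) in the 12 libraries, by group (x axis), a point for each library. The mitotic sum is 53.2 in WT MCD 1 and under 30 elsewhere, while the G1/S and p53 group sums are higher in all MCD than in all chow libraries. On MCD most of the G1/S sum is Ccnd1.

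Deletion of Pctp was compared within each diet. On chow 0 of the 28 tested members passed, where 0.136% of all genes did. The unadjusted p was under 0.05 for 870 of the 12466 genes tested, and for 4 of the members. They were Ccne1 at -0.59 ± 0.14 (adjusted p = 0.19), Gadd45a at -1.12 ± 0.39 (adjusted p = 0.47), Cdkn1a at 1.15 ± 0.45 (adjusted p = 0.61) and Mcm7 at 0.27 ± 0.11 (adjusted p = 0.64), as log2 differences of Pctp-/- from WT livers. Of all 44 members 10 were lower in every Pctp-/- than in every WT liver, against 5.33% of all genes. These were Birc5, Ccnb1, Ccne1, Cdk1, Gadd45a, Rrm2, Stmn1, Tacc3, Tyms and Ube2c. Cdkn1a was higher, 1 of 44 members against 4.64% of all genes. Without WT chow 1 there were 11 lower, against 9.82% of all genes, and 4 higher, against 14.4%.

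On MCD 0 of the 28 members passed, where 0.818% of all genes did. The unadjusted p was under 0.05 for 2026 of the 12466 genes tested, and for 10 of the members, all lower in Pctp-/- livers. With WT MCD 1 left out, 3 of 27 had such a p (Mcm2, Mcm5 and Gadd45a), against 1443 of all 12404 genes tested. Of the 28 differences 25 were negative, with a median of -0.29, against 70.3% negative and a median of -0.09 over all genes tested. With that library left out 21 of 27 were negative, with a median of -0.17, against 64.7% and -0.07 over all genes tested. The difference was -0.76 ± 0.20 (adjusted p = 0.096) for Mcm2, -1.19 ± 0.45 (adjusted p = 0.22) for Cdkn1a, -0.60 ± 0.23 (adjusted p = 0.23) for Ccnd1 and -0.43 ± 0.14 (adjusted p = 0.17) for Mdm2. The values of Cdc20, -1.29 ± 0.55 (adjusted p = 0.28), and of Ube2c, the ubiquitin-conjugating enzyme of the same complex, -0.67 ± 0.30 (adjusted p = 0.3), were also below 0. Without WT MCD 1 the differences were -0.53 for Mcm2, -0.65 for Cdkn1a, -0.37 for Ccnd1, -0.30 for Mdm2, -0.53 for Cdc20 and -0.22 for Ube2c. Of the 44 members 16 were lower in every Pctp-/- than in every WT MCD liver, against 17.1% of all genes. They were 8 mitotic genes (Aurka, Bub1, Bub1b, Ccnb1, Ccnb2, Cdc20, Kif11 and Ube2c), 6 replication genes (Mcm2, Mcm5, Mcm6, Mcm7, Pcna and Tyms), Ccnd1 and Mdm2. Ccne2 was higher in all 3 Pctp-/- livers, 1 of 44 members against 5.25% of all genes. Without WT MCD 1 there were 18 lower, against 22.7% of all genes.

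The diet effect did not pass as different between genotypes for any member, where 0.0963% of all genes did. The unadjusted p was under 0.05 for 1884 of the 12466 genes tested, and for 5 members. Besides Cdkn1a and Mcm7 these were Mcm2 at -0.83 ± 0.28 (adjusted p = 0.19), Mcm5 at -0.56 ± 0.25 (adjusted p = 0.32) and Tk1 at 0.93 ± 0.40 (adjusted p = 0.29), as the effect in Pctp-/- minus that in WT livers. The difference of Mcm5 was -0.34 without WT MCD 1. A call in WT livers that is missing in Pctp-/- livers is thus not shown to differ between them.

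Other genes of these pathways were counted from lists of 164 genes that hold no member. In WT livers on MCD 5 of 17 tested mitotic genes rose and 2 fell, as did 10 and 2 of 32 replication genes, 12 and 4 of 31 CDK, Rb and E2F genes, and 9 and 3 of 27 p53 targets, against 34.5% and 22.5% of all genes. In Pctp-/- livers 3 rose and 4 fell, 7 and 3, 9 and 4, and 5 and 9 in the same order, against 26.0% and 24.4% of all genes. Among the 50 other mitotic genes 44 were highest in WT MCD 1, with a median ratio of 3.65 to the other WT MCD livers. Cenpm FPKM was 1.89, 1.99 and 1.18 in WT chow, 3.19, 2.48 and 2.59 in Pctp-/- chow, 19.1, 13.1 and 12.3 in WT MCD and 10.3, 12.6 and 13 in Pctp-/- MCD livers. Cenpm, a centromere protein, rose by 2.55 ± 0.17 (adjusted p = 3.9e-07) in WT and by 1.79 ± 0.17 (adjusted p = 6.9e-06) in Pctp-/- livers. Ddit4 FPKM was 4.57, 2.44 and 3.4 in WT chow, 5.52, 12.6 and 13.9 in Pctp-/- chow, 59, 143 and 45.6 in WT MCD and 17.3, 25.6 and 6.51 in Pctp-/- MCD livers. Ddit4, a stress-induced inhibitor of mTORC1, rose by 4.07 ± 0.49 (adjusted p = 2.8e-05) in WT and stood at 0.49 ± 0.49 (adjusted p = 0.43) in Pctp-/- livers. Cdkn1c FPKM was 2.2, 1.24 and 1.27 in WT chow, 1.62, 1.38 and 2.01 in Pctp-/- chow, 5.11, 5.48 and 6.01 in WT MCD and 7.82, 7.41 and 9.61 in Pctp-/- MCD livers. Cdkn1c, the CDK inhibitor p57, rose by 1.37 ± 0.15 (adjusted p = 1.7e-05) and 1.80 ± 0.15 (adjusted p = 2.8e-06).

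The falls among these genes were led by Gadd45g, a relative of Gadd45a and Gadd45b. Gadd45g FPKM was 163, 155 and 68.4 in WT chow, 107, 123 and 133 in Pctp-/- chow, 41.8, 39.6 and 19.6 in WT MCD and 18, 36.6 and 10.5 in Pctp-/- MCD livers. Gadd45g fell by 1.88 ± 0.42 (adjusted p = 0.0025) in WT and by 2.59 ± 0.42 (adjusted p = 3.4e-04) in Pctp-/- livers, opposite to its relatives. Spc24 FPKM was 6.64, 5.87 and 6.5 in WT chow, 7.55, 6.9 and 6.77 in Pctp-/- chow, 6.81, 3.72 and 4.01 in WT MCD and 2.96, 2.81 and 2.68 in Pctp-/- MCD livers. Spc24, a kinetochore protein, fell by 1.08 ± 0.16 (adjusted p = 1.6e-04) in Pctp-/- livers, and its WT difference was -0.36 ± 0.16 (adjusted p = 0.067). Ephx1 FPKM was 366, 337 and 454 in WT chow, 451, 419 and 344 in Pctp-/- chow, 245, 233 and 186 in WT MCD and 108, 116 and 128 in Pctp-/- MCD livers. Ephx1, the microsomal epoxide hydrolase, fell by 0.80 ± 0.14 (adjusted p = 5.4e-04) in WT and by 1.77 ± 0.14 (adjusted p = 1.9e-06) in Pctp-/- livers.

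Among the 107 other pathway genes tested, 2 passed for the knockout on MCD, where 0.818% of all genes did. Both are in the list of p53 targets. Ephx1 fell by 0.90 ± 0.14 (adjusted p = 0.015) in Pctp-/- against WT MCD livers. Perp FPKM was 44.9, 40.8 and 43 in WT chow, 46.7, 43.8 and 45.1 in Pctp-/- chow, 41.8, 39.7 and 41.9 in WT MCD and 33.3, 31.1 and 27.4 in Pctp-/- MCD livers. Perp, a membrane protein of desmosomes, fell by 0.42 ± 0.09 (adjusted p = 0.049). Of the 27 other p53 targets tested, 2 passed and 26 had a log2 difference below 0 in Pctp-/- MCD livers, with a median of -0.43, against 70.3% below 0 and a median of -0.09 over all genes. Without WT MCD 1, 0 of 26 passed in limma, 10 had an unadjusted p under 0.05, 23 were below 0 and the median was -0.31. Over all genes tested without that library, 1443 of 12404 had such a p, 64.7% were below 0 and the median was -0.07. On chow 0 of the 107 other pathway genes tested passed in limma, where 0.136% of all genes did. For 9 the unadjusted p was under 0.05, against 870 of all 12466 genes tested.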

How the data were processed

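Whole liver RNA of 12 mice was sequenced at Novogene. The table the authors deposited holds FPKM for each gene in each library, values normalized for gene length and depth that are not counts, with a second table of whole read counts per library and mapping and quality measures as percent values. Per the labels the genome build was mm10, while the aligner, the counter and the annotation are not given in the sources used here. The deposited count of reads and the percent values served only to describe depth. Groups came from the genotype and diet labels, with 3 mice in each, and each library is a mouse of its own.

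Symbols and positions came from GENCODE M21, which held 34490 of the 35275 identifiers. Genes with a mean FPKM of 0.5 or more over the 12 libraries (12466) were fitted as log2(FPKM + 1) with limma 3.58.1 in R 4.3.3, using 4 group means and a trend of variance on mean, with Benjamini-Hochberg adjustment over all tested genes. An adjusted p under 0.05 was a call, with no minimum fold change. The study's Wald test on counts could not be run on FPKM. On simulated data 92.5% of 200 genes changed by 1 were recovered for the diet comparison in WT, over 12466 genes, and 0 were called with no change. The changed genes were drawn only from those with a mean log2(FPKM + 1) above 2. Noise was normally distributed, and no library was made to stand apart. Lower members, such as Mcm2 and Cdk1, are thus not covered by this share. Alternatives covered the pseudocount, filter, scaling, limma options, libraries and a replicate block. Replicate numbers name different mice in each group, so no block was used. The members and the lists of other genes and markers were chosen with earlier results of these data known, and a marker of the erythroid list is not reported here. Values in all libraries are given for members called in any contrast and for the 2 most abundant others of each role. Of the other pathway genes the text names the 3 rises and 3 falls that were greatest among those called for the diet, and any called for the knockout. Promoter windows came from RefSeq (GRCm38.p6). For 30 of 36 genes a window held bases of a GENCODE transcript of the gene in the same direction after the start. Figures were drawn with matplotlib 3.10.9.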

Additional observations from a re-analysis of the deposited data

Results flagged for a closer look

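Mcm7 was singled out because its MCD libraries lay above the chow libraries in WT and below them in Pctp-/- livers, although the Pctp-/- difference did not pass (limma, adjusted p = 0.14). In WT livers it was higher in all 3 MCD than in all 3 chow libraries, and in Pctp-/- livers it was lower in all 3 MCD than in all 3 chow libraries. The difference of the diet effects, Pctp-/- minus WT, was -0.57 on the log2 scale (limma, adjusted p = 0.14), which did not pass over all genes. The exons of Mcm7 share 7.25% of their length with Ap4m1 and 1.45% with Cops6 on the opposite strand, and Cops6 had a mean of 61.2 FPKM.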

How the results depend on the processing

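Over the alternative settings other than leaving out a library, 15 to 17 members were called for the diet in WT and 11 to 14 in Pctp-/- livers, and 0 for the knockout on either diet or for the difference of the diet effects. Leaving out 1 library at a time gave 14 to 18 and 9 to 14 calls for the diet, 0 for the knockout on chow, 0 to 1 for the knockout on MCD and 0 to 1 for the difference. The single calls were Mcm2 as lower in Pctp-/- MCD livers without WT MCD replicate 3 (adjusted p = 0.024) and Tk1 for the difference without WT chow replicate 1 (adjusted p = 0.047). Of the 28 member calls 21 held in every setting, and none of the 728 alternative values changed direction. The calls lost in some setting were those of Mcm4, Mcm7, Mdm2 and Tyms in WT and of Ccng1, Cenpa and Tk1 in Pctp-/- livers. With the replicate block 17 and 11 members were called for the diet and 0 otherwise, and 8 of 18 pairs with the same number deviated together with a correlation over 0.1, against 3 of 36 pairs with different numbers. Quantile normalization moved the median of all genes in WT from 0.11 to 0.01, and the 5 p53 group genes stayed called. That normalization also moved the share of all genes below 0 for the knockout on MCD from 70.3% to 51%. The causes were not tested. Of the 22 mitotic genes 14 had a mean under 0.5 FPKM and could be tested only with a lower filter.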
